A study of Mus musculus with 7 samples.

Results

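Genes of mouse chromosome 18 were examined as a group in RNA-seq counts from 7 lymphoma cell lines, with the clustered protocadherin genes left aside. A gene was a member if it lay on chromosome 18 (build GRCm38, also called mm10) and reached 0.5 CPM, the count scaled to a common library total, in 3 or more of the 7 libraries. Symbols beginning with Pcdh, symbols of Zfp followed by digits, and a short list of individually named genes were left out. Members were therefore chosen by their measured CPM. Of 588 chromosome 18 genes in the tables, 282 passed the CPM filter. After 22 were left out by symbol (7 protocadherins, 8 Zfp genes and 7 others), 260 members remained, of 12303 genes past the filter and 27179 in all. At the threshold, the members just inside were Snx24, with 0.551 CPM in the third of its libraries ranked from the highest, and 1700086O06Rik, with 0.618 CPM. Just outside lay Nrep (0.492 CPM at that rank, 10.1 CPM in its highest library) and Epb41l4a (0.444 CPM). Of the 260 members, 228 were at 0.5 CPM or more in every library. Of the members, 1 stayed under 0.5 CPM in every wild-type library and 1 in every Smchd1 null library. Other members also passed the filter only through one group, such as B4galt6, at 0, 0.328 and 1.17 CPM in the wild-type lines. Such members were not counted.

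The lines were grown from end-stage lymphomas of male C57BL/6 mice that carried the Eµ-Myc transgene, in which an immunoglobulin heavy chain enhancer drives Myc in the B lineage. All 7 lines shared this transgene. The 3 wild-type lines had intact Smchd1 (Smchd1+/+), and the 4 Smchd1 null lines carried a mutant allele on both copies. The labels call this allele a gene trap, whereas the study's methods write the genotype as Smchd1 MD1/MD1. Wild-type replicate 1 was the only library of batch 1 and had single-end reads, and the other 6 libraries formed batch 2 and had paired-end reads. Ages, treatments and times were not among the labels. Each group member is a single tumour-derived line, and no source used here says whether the lines came from separate mice, so the p-values measure the spread between these lines.

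Smchd1 encodes a chromatin protein related to the structural maintenance of chromosomes family. It is known for its part in silencing the inactive X chromosome, imprinted genes and the clustered protocadherins, which lie on mouse chromosome 18. The remaining genes of that chromosome are a mixed set of housekeeping, signalling and lineage genes that are not known as a functional group. They hold, for example, the signal transducers Smad2 and Smad4, the Wnt pathway scaffold Apc, the B cell transcription factor Tcf4, the ribosomal protein gene Rps14 and the mitochondrial chaperone gene Hspa9. A shift shared by many of them can be read as the median, over members, of each gene's deviation from its own median across the libraries.

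Total counts ranged from 3626853 in wild-type replicate 1 to 7519549 in Smchd1 null replicate 4, so that 3 counts, taken as the smallest visible level, corresponded to 0.827 and 0.399 CPM in these libraries. The mutated gene itself, Smchd1, had 232 ± 14.9 CPM (SD, n = 3) in the wild-type lines and 26.5 ± 2.85 CPM (SD, n = 4) in the null lines (exact two-sided permutation test, p = 0.02857, the smallest that 3 against 4 libraries allow). Some libraries stood apart. Wild-type replicates 2 and 3 were closer to each other than any other pair of a group, with a chi-square of 3.79 per gene against 17.2 to 61.2 for the other pairs, though still beyond sampling noise. The fit gave wild-type replicate 1 a sample weight of 0.246 and Smchd1 null replicate 4 one of 0.249, against 0.831 to 3.79 for the others. In Smchd1 null replicate 4 the sum of 6 B cell markers was 471 CPM, against 1124 to 2090 CPM elsewhere. The endothelial list, of which Pecam1 gave nearly all, summed to 220 CPM there against 47.7 to 96.0 CPM elsewhere. The T cell list summed to at most 0.399 CPM (2 of its 4 markers at 0 in every library), the erythroid list to at most 0.532 CPM, the myeloid list to at most 25.2 CPM and the fibroblast list to at most 9.38 CPM. Ddx3y, a Y-linked gene, was at 0 CPM in Smchd1 null replicate 3 and 1.10 CPM in wild-type replicate 1, against 89.2 to 141 CPM in the other 5 libraries, although every line is labelled male. Of the other Y-linked genes, Kdm5d (0.665 CPM) and Uty (1.20 CPM) were low in Smchd1 null replicate 4, but Eif2s3y was at 54.0 CPM there. Eif2s3y was at 0 CPM in wild-type replicates 2 and 3.

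Members lay higher in Smchd1 null replicates 3 and 4 than in the other 5 libraries. The deviation of a member is its log2(CPM + 0.5) in a library minus the median of that value over the 7 libraries, so that 0 is the typical line. Median deviations over the 260 members were 0 in wild-type replicate 1, -0.06 in wild-type replicate 2 and -0.09 in wild-type replicate 3. They were 0 in Smchd1 null replicate 1, -0.03 in replicate 2, 0.35 in replicate 3 and 0.38 in replicate 4. The last values correspond to levels 1.28-fold and 1.30-fold those of the typical line, while the same median over all 12303 genes was 0 in each library. Because members were read on this same measure, these medians are a description and no test was made on them. RNA from whole cultures was measured, so more cells of a kind and more RNA per cell cannot be told apart, and no DNA measurement was analysed here.

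Most members shared the shift, and none of the other lines came near it. In Smchd1 null replicate 3 the members' deviations had quartiles of 0.06 and 0.53, and 202 members (77.7%) lay above 0, against 40.5% of all genes. For Smchd1 null replicate 4 the quartiles were 0.01 and 0.68, and 195 members (75%) lay above 0, against 46.5% of all genes. The other 5 libraries had between 50 and 125 members above 0, the highest number being that of wild-type replicate 1. The spread over members was widest in Smchd1 null replicate 4, with an interquartile range of 0.67 and 37 members above 1. Over all genes the range was also wide in that line, at 0.60, and in wild-type replicate 1, at 0.65. For Smchd1 null replicate 3 the range was 0.47 over members and 0.355 over all genes, and 7 members lay above 1.

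**Figure D1:**
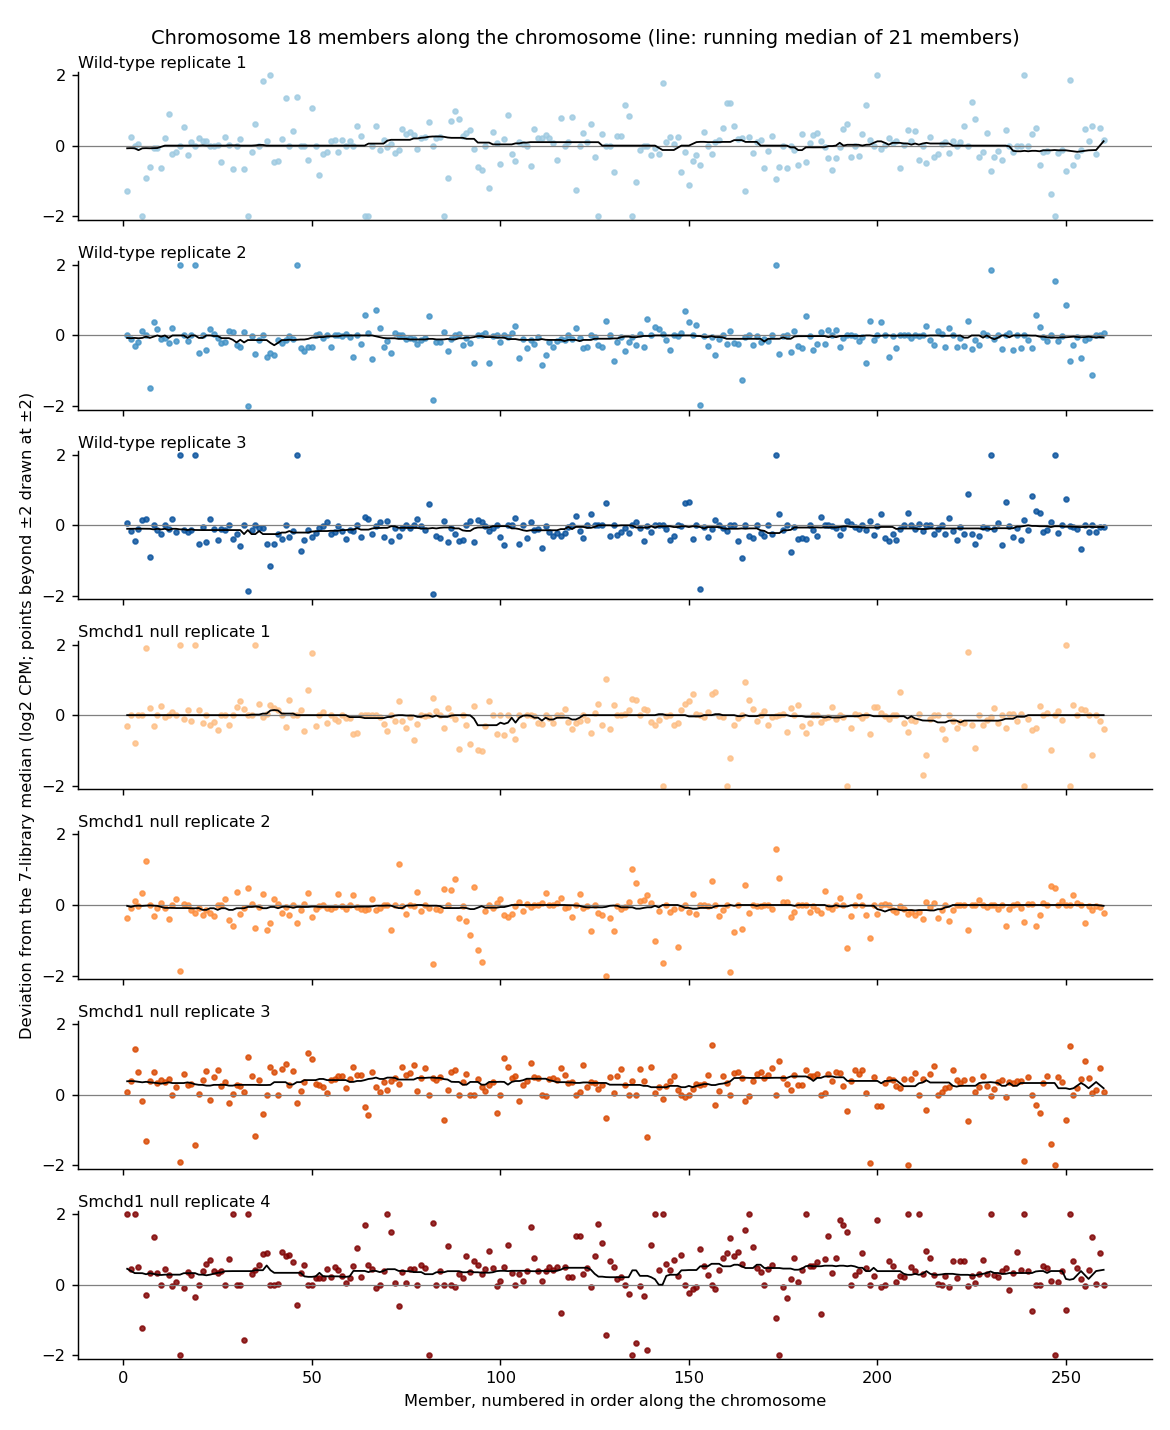
Deviation of each of the 260 members from its 7-library median (y axis, log2 CPM, points beyond ±2 drawn at ±2) against the order of the members along the chromosome (x axis), with 1 panel per library and a black running median of 21 members. The running median stays at or above 0 from end to end in Smchd1 null replicates 3 and 4, and lies closer to 0 along most of the chromosome in the other 5 libraries.

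The same pair of libraries held the top places gene by gene. Smchd1 null replicate 4 was the highest of the 7 libraries for 106 members (40.8%, against 23.8% of all genes). Smchd1 null replicate 3 was the highest for 87 members (33.5%, against 9.06% of all genes). Next came wild-type replicate 1, the highest for 25 members (9.62%, against 25.6% of all genes). For 114 members (43.8%) these libraries were the top pair, a rank that they held for 6.66% of all genes. The next most frequent top pair, wild-type replicate 1 with Smchd1 null replicate 4, held it for 27 members (10.4%, against 12.1% of all genes). Members took 3.08% of all counts in Smchd1 null replicate 3 and 3.29% in replicate 4, and between 2.21% and 2.43% in the other libraries.

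Smchd1 null replicates 3 and 4 differed from the other Smchd1 null lines by about as much as from the wild-type lines. The median over members of the log2 difference between Smchd1 null replicate 3 and replicates 1 and 2 of the same group was 0.42 and 0.44. Against wild-type replicates 1, 2 and 3 it was 0.32, 0.47 and 0.54. For Smchd1 null replicate 4 the medians were 0.47 and 0.45 against replicates 1 and 2 of its group, and 0.31, 0.52 and 0.52 against wild-type replicates 1, 2 and 3. The 2 raised lines differed from each other by a median of 0.02. Both raised lines were Smchd1 null, while replicates 1 and 2 of that group and wild-type replicates 1, 2 and 3 were not raised. The part of genotype in the shift was not tested.

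The shift ran along the whole chromosome. Members spanned gene starts from 3266354 (Crem) to 90510154 (Tmx3) of chromosome 18. In windows of 10 Mb, leaving out the last, which held 1 member, the median deviation ranged from 0.25 to 0.47 in Smchd1 null replicate 3 and from 0.21 to 0.79 in replicate 4. The window from 30 to 40 Mb, where the protocadherin clusters also lie, held the largest number of members, 76, and had medians of 0.38 in both. The value of 0.79 came from the window from 50 to 60 Mb, which held 14 members, among them Lmnb1 and Slc12a2. In the other 5 libraries the windows of more than 1 member had medians between -0.29 and 0.20. Of the genes left out by symbol, the 15 that are not protocadherins had medians of 0.56 (13 above 0) in Smchd1 null replicate 3 and 0.30 (11 above 0) in replicate 4, and between -0.08 and 0 in the others.

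Well expressed members carried the shift with less spread. When members were split by mean CPM into 3 bins of 86 or 87, the median deviation in Smchd1 null replicate 3 was 0.10 in the lowest bin (up to 28.0 CPM), 0.41 in the middle bin and 0.41 in the highest bin (from 83.0 CPM). For replicate 4 it was 0.34, 0.39 and 0.38, and the interquartile range narrowed from 0.94 to 0.62 and 0.46. Split by gene length, the medians were 0.36, 0.34 and 0.36 in replicate 3 and 0.32, 0.42 and 0.34 in replicate 4. Of the members, 244 are annotated as protein coding, 9 as long non-coding RNA and 7 as pseudogenes or small RNAs. Per kilobase of gene length, the most abundant members were Eno1b (mean 1328 CPM per kb), Rps14 (872), Atp5a1 (796), Mzb1 (395) and Hspa9 (388).

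Chromosome 18 was compared with the other autosomes on the same measure. In Smchd1 null replicate 3 the medians of the other 18 autosomes lay between -0.10 and 0.04, so that chromosome 18, at 0.36 over all 282 expressed genes, was the only autosome beyond 0.2. Smchd1 null replicate 4 had chromosome 18 at 0.37, and chromosomes 15 and 16 also lay high, at 0.43 (453 genes) and 0.38 (388 genes). These chromosomes were at 0 and -0.03 in Smchd1 null replicate 3. Shifts of like or larger size occurred on other chromosomes in other lines, such as -0.63 for chromosome 13 in wild-type replicate 1, 0.34 and 0.48 for chromosome 19 in wild-type replicates 2 and 3, and -0.38 for chromosome 3 in both Smchd1 null replicates 1 and 2. A chromosome-wide shift in some lines was thus not particular to chromosome 18 in these data, and both genotype groups contained such lines.

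**Figure D2:**
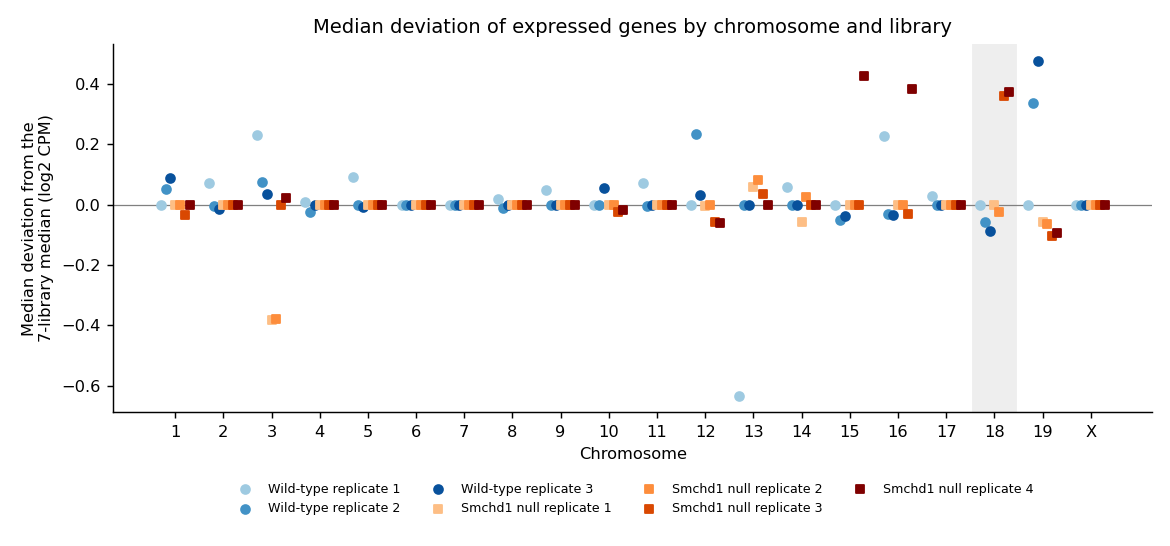
Median deviation of expressed genes from their 7-library medians (y axis, log2 CPM) for each chromosome (x axis) in each library (circles, wild-type; squares, Smchd1 null), with chromosome 18 shaded and all of its 282 expressed genes included. Smchd1 null replicates 3 and 4 lie at 0.36 and 0.37 on chromosome 18, and the lowest point is wild-type replicate 1 on chromosome 13, at -0.63.

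Members were next grouped by function to see which kinds of gene took part in the shift. Of 132 symbols in 8 lists, 122 were members. In Smchd1 null replicate 3 the median deviation of every list lay above that of each of the 5 other lines, and the same held in Smchd1 null replicate 4. The largest list value was that of lymphocyte signalling and survival genes in replicate 4, at 0.85, where all 16 members lay above 0. In replicate 3 that list had the smallest value, at 0.17, with 9 of 16 above 0. The 138 members in no list had medians of 0.28 and 0.33, so the shift was also present outside the listed functions.

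**Figure D3:**
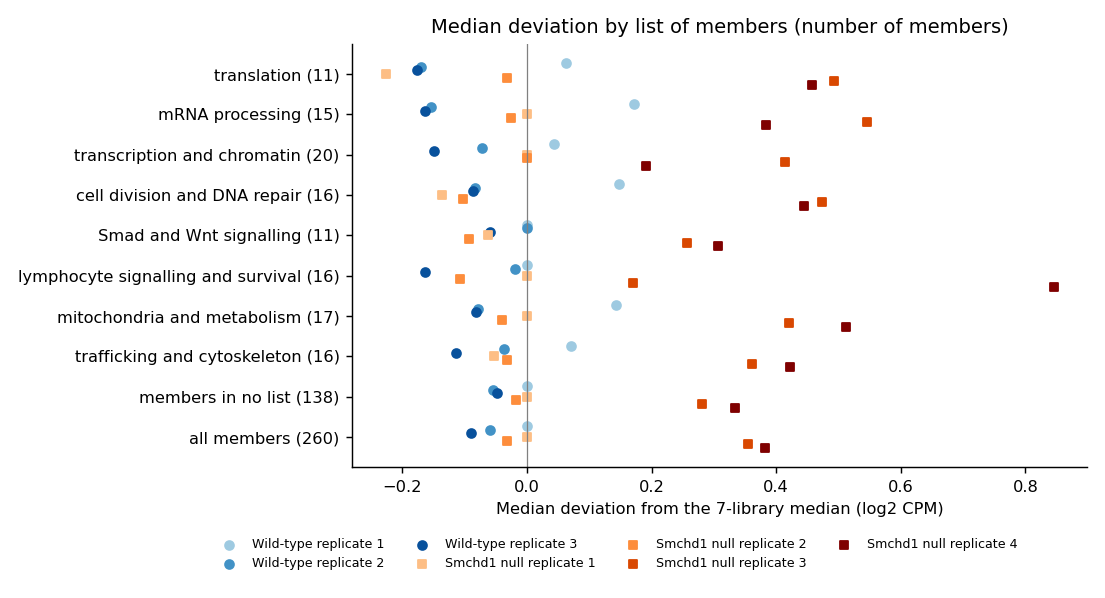
Median deviation from the 7-library median (x axis, log2 CPM) of the members of each functional list (y axis, number of members in brackets) in each library (circles, wild-type; squares, Smchd1 null). In every list the points of Smchd1 null replicates 3 and 4 lie to the right of the other 5, and lymphocyte signalling genes reach 0.85 in replicate 4.

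Among genes of translation, 11 of 11 members lay above 0 in Smchd1 null replicate 3 (median 0.49) and 9 in replicate 4 (median 0.46), while medians in the other lines lay between -0.23 and 0.06. Rps14, a protein of the small ribosomal subunit (chromosome 18, 60774596 to 60778546), was at 437, 434 and 489 CPM in wild-type replicates 1 to 3 and at 404, 488, 720 and 671 CPM in Smchd1 null replicates 1 to 4. Etf1, the release factor that ends translation at stop codons, was at 594, 448 and 411 CPM in wild-type lines and 548, 470, 688 and 510 CPM in Smchd1 null lines. Both genes were highest in Smchd1 null replicate 3, and their groups overlapped. Nars, an asparaginyl-tRNA synthetase, reached 905 CPM in Smchd1 null replicate 4 and 522 CPM in replicate 3, against 273 to 385 CPM in the other lines.

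Genes of mRNA processing had medians of 0.55 in Smchd1 null replicate 3 (14 of 15 above 0) and 0.38 in replicate 4 (13 of 15), against -0.16 to 0.17 elsewhere. Matr3, a nuclear matrix RNA-binding protein, was at 502, 344 and 315 CPM in wild-type lines and 420, 410, 543 and 480 CPM in Smchd1 null lines. Txnl4a, a component of the spliceosome, was at 282, 283 and 288 CPM in wild-type lines and 331, 315, 456 and 441 CPM in Smchd1 null lines. Its groups did not overlap, with the gap set by replicates 1 and 2, but the limma FDR was 0.123.

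Genes of transcription and chromatin had medians of 0.41 in Smchd1 null replicate 3 (17 of 20 above 0) and 0.19 in replicate 4 (12 of 20), against -0.15 to 0.04 elsewhere. Brd8, a bromodomain protein of a histone acetyltransferase complex, had 310 CPM in Smchd1 null replicate 3 and 227 CPM in replicate 4, and 158 to 244 CPM elsewhere. Wac, an adaptor for histone H2B ubiquitination, did not share the shift, with 151 and 145 CPM in these libraries and 128 to 175 CPM elsewhere.

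Genes of cell division and DNA repair had medians of 0.47 and 0.44, with 15 of 16 members above 0 in each of the raised lines, against -0.14 to 0.15 elsewhere. Lmnb1, which encodes a lamin of the nuclear envelope, was at 656, 479 and 416 CPM in wild-type lines and 542, 571, 900 and 1093 CPM in Smchd1 null lines. Cep192, a centrosome protein, was at 275 CPM in Smchd1 null replicate 3 and 232 CPM in replicate 4, above the 170 to 204 CPM of the other lines. Kif20a, a kinesin of cytokinesis, was at 290 CPM in Smchd1 null replicate 3 but at 204 CPM in replicate 4, within the range of 152 to 244 CPM of the others.

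Genes of Smad and Wnt signalling had medians of 0.26 (9 of 11 above 0) and 0.31 (7 of 11), against -0.09 to 0 elsewhere. Csnk1a1, a kinase of the complex that marks beta-catenin for destruction, was at 228, 270 and 239 CPM in wild-type lines and 249, 216, 370 and 417 CPM in Smchd1 null lines. Apc, the scaffold of the same complex, lay between 90.4 and 115 CPM in all 7 libraries, with the raised lines at 105 and 98.7 CPM. Smad4, the shared transducer of the TGF-beta family, lay between 76.0 and 106 CPM, with the raised lines at 106 and 100.5 CPM. The members of the pathway thus did not move as a block.

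Genes of mitochondria and metabolism had medians of 0.42 (14 of 17 above 0) and 0.51 (15 of 17), against -0.08 to 0.14 elsewhere. Hspa9, the mitochondrial Hsp70 chaperone, was at 1297, 981 and 869 CPM in wild-type lines and 1106, 1011, 1559 and 1443 CPM in Smchd1 null lines. Me2, a mitochondrial malic enzyme, was at 254 CPM and 211 CPM in the raised lines, and at 161 to 254 CPM in the others. Genes of trafficking and the cytoskeleton had medians of 0.36 (14 of 16) and 0.42 (13 of 16), against -0.11 to 0.07 elsewhere. Kif5b, a motor of plus-end transport, was at 261 CPM and 260 CPM in the raised lines, and at 189 to 236 CPM in the others. Lman1, a cargo receptor between endoplasmic reticulum and Golgi, had 511 CPM in Smchd1 null replicate 4, against 148 to 217 CPM elsewhere.

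In the lymphocyte list, Tcf4, an E-protein transcription factor of the B lineage, was at 543 CPM in Smchd1 null replicate 4, against 90.4 to 124 CPM in the other 6 libraries. Pik3c3, the class III phosphoinositide 3-kinase, was at 107 and 99.6 CPM in the raised lines and 70.8 to 87.8 CPM elsewhere. Pstpip2, an adaptor of phosphatases, was at 50.4 CPM in Smchd1 null replicate 4 and 51.8 CPM in wild-type replicate 1, and at no more than 2.79 CPM in the rest. Smchd1 null replicate 4, where this list was highest, had the lowest B cell marker sum (471 CPM) and the highest endothelial sum (220 CPM). The highest B cell sum was that of Smchd1 null replicate 3 (2090 CPM). The part of these markers in the list values was not tested.

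Smchd1 null replicate 4 also held members far outside the common shift, chosen here as the 8 highest and 5 lowest deviations among the 209 members with a mean of at least 10 CPM. Mbp, which encodes myelin basic protein, had the highest deviation, 4.88, with 80.7 CPM against 0.148 to 9.38 CPM in the other lines. Crem, a cAMP-responsive transcription factor, was at 102 CPM against 2.76 to 7.88 CPM, and Reep5, a shaper of the endoplasmic reticulum, at 338 CPM against 34.5 to 52.8 CPM. Slc12a2, a sodium, potassium and chloride cotransporter, was at 356 CPM against 55.7 to 93.6 CPM, and Bambi, a pseudoreceptor that dampens TGF-beta signals, at 37.6 CPM against 2.67 to 13.0 CPM. The other members of this group were Pstpip2, B4galt6 and Tcf4. At the low end, Camk2a, a calmodulin-dependent kinase, had 0 counts in this library, which allows up to 0.399 CPM, against 22.6 to 67.8 CPM elsewhere. Reep2 was at 1.73 CPM against 11.4 to 19.6 CPM, and Kctd1 at 4.79 CPM against 9.38 to 17.0 CPM. Colec12, a scavenger receptor, was at 1 count or fewer in Smchd1 null replicates 2, 3 and 4 and at 83.4 CPM in replicate 1. Prelid2 was at 4.79 CPM against 2.25 to 28.4 CPM.

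The study asked which genes Smchd1 regulates, so members were then compared between the genotype groups. With voom and sample weights, 21 members were called higher in Smchd1 null lines at an FDR under 0.05 over all genes (8.08%, against 5.06% of all genes tested). Lower calls numbered 3 (1.15%, against 6.85% of all genes), and 236 members were not called. The median log2 fold change of members was 0.18, against -0.01 over all genes, and 187 of 260 were positive. Every Smchd1 null library lay above every wild-type library for 38 members (14.6%, against 6.35% of all genes) and below for 5 (1.92%, against 6.85%). The raised lines are both in the Smchd1 null group, so their levels enter each of these counts. An upward separation also needs the Smchd1 null lines that are not raised to lie above every wild-type library. The part of the shift in these counts was not tested.

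The calls rested on the wild-type pair and on the weights. With wild-type replicate 2 or 3 left out, the same limma fit called 0 members, and 13 (5.0%) and 10 (3.85%) members had an unadjusted p under 0.05, against 5.98% and 6.34% of all genes. Each of these fits leaves 2 wild-type lines, and the paper states that samples in a group of 2 receive equal weight. Wild-type replicate 1, weighted at 0.246 in the full fit, then counts as much as the other, so the lines and the weights changed together. With voom alone 0 members were called, and 36 (13.8%, against 11.3% of all genes) had an unadjusted p under 0.05. The edgeR quasi-likelihood test also called 0, with 41 (15.8%, against 11.5%) at that level. In the weighted fit 83 members (31.9%, against 31.8%) were at that level. DESeq2 called 10 of the 24, and 1.56% of all genes higher and 1.54% lower. Within batch 2, without wild-type replicate 1, there were 20 higher and 6 lower calls, against 5.54% and 8.14% of all genes.

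Members were also compared on a scale that takes out the shift. When the median deviation of each chromosome in each library was subtracted before the fit, 11 members were called higher (4.23%, against 4.97% of all genes) and 7 lower (2.69%, against 4.71%), with a median log2 fold change of 0.03, which the centring itself brings near 0. All 11 and the 3 lower calls of the first fit were among them, and 10 higher calls were lost. Without Smchd1 null replicates 3 and 4, 9 members were called higher (3.46%, against 2.71% of all genes) and 4 lower (1.54%, against 3.62%). Of these, 8 and 2 were calls of the first fit, and the median log2 fold change was 0.04. Fewer libraries entered this fit, and calls over all genes were fewer too.

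**Figure D4:**
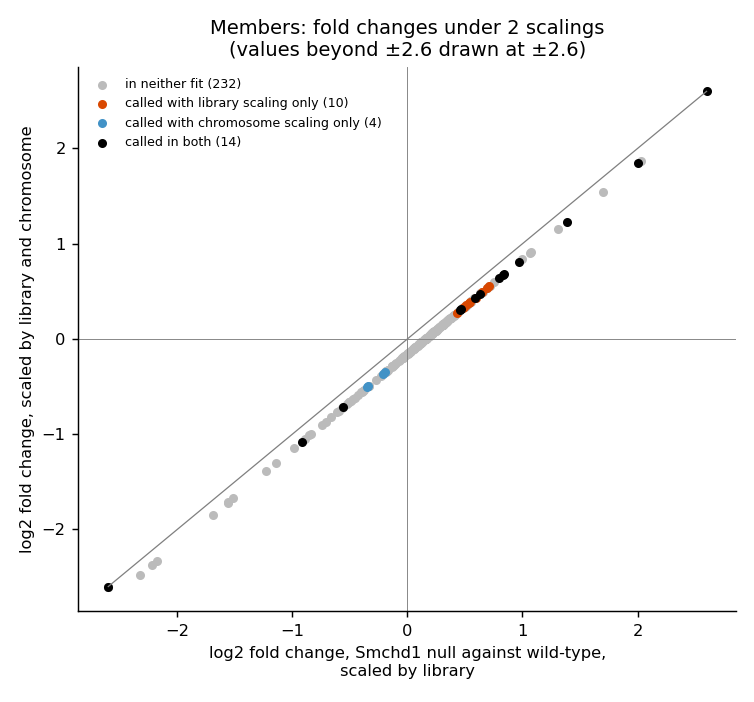
Log2 fold change of each member, Smchd1 null against wild-type, with scaling by library (x axis) and with scaling by library and chromosome (y axis), values beyond ±2.6 drawn at ±2.6 and the diagonal showing equality. Nearly all members lie just below the diagonal, 14 are called in both fits (black), 10 with library scaling only (red) and 4 with chromosome scaling only (blue).

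The member with the smallest FDR was Tnfaip8, a TNF-induced regulator of cell survival (chromosome 18, 49979427 to 50093229). It was at 58.7, 22.0 and 24.6 CPM in wild-type lines and at 86.9, 87.4, 106 and 176 CPM in Smchd1 null lines. All 4 Smchd1 null lines lay above all 3 wild-type lines. Its log2 fold change was 2.00 (SE 0.184, limma FDR 0.002294), and the FDR was 0.006093 without Smchd1 null replicates 3 and 4. The other lymphocyte gene called, Mzb1 (35647265 to 35650266), encodes a chaperone of the endoplasmic reticulum in B cells and plasma cells. Mzb1 was at 314, 194 and 242 CPM in wild-type lines and 402, 482, 335 and 538 CPM in Smchd1 null lines, without overlap. Its log2 fold change was 0.97 (SE 0.155, limma FDR 0.01241).

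Zeb1, a zinc finger repressor that binds E-boxes (5591327 to 5775468), was the only call of the Smad and Wnt list. It was at 22.9, 12.1 and 18.5 CPM in wild-type lines and 40.0, 35.0, 45.9 and 44.0 CPM in Smchd1 null lines. All Smchd1 null lines lay higher, with little spread among them, and the log2 fold change was 1.39 (SE 0.199, limma FDR 0.01087). Of the transcription and chromatin list, Ino80c and Ss18 were called, subunits of the INO80 and BAF chromatin remodelling complexes. Ino80c (24104761 to 24121819) was at 31.2, 29.0 and 29.9 CPM in wild-type lines and 50.2, 49.0, 67.3 and 43.2 CPM in Smchd1 null lines (log2 fold change 0.83, SE 0.130, limma FDR 0.01219). Ss18 (14625629 to 14684419) was at 145, 121 and 124 CPM in wild-type lines and 174, 189, 179 and 147 CPM in Smchd1 null lines, so that replicate 4 nearly met wild-type replicate 1. Its log2 fold change was 0.54 (SE 0.0877, limma FDR 0.01272). Ss18 was no longer called with chromosome scaling (FDR 0.0873), but stayed called without Smchd1 null replicates 3 and 4 (FDR 0.0345).

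In the metabolic list, Cndp2, a cytosolic dipeptidase (84667465 to 84685702), was at 57.1, 39.9 and 39.3 CPM in wild-type lines and 70.5, 62.3, 85.6 and 69.8 CPM in Smchd1 null lines. The groups did not overlap, and the log2 fold change was 0.80 (SE 0.124, limma FDR 0.01219). Atp5a1, the alpha subunit of the mitochondrial ATP synthase (77773768 to 77782869), was at 1900, 1471 and 1422 CPM in wild-type lines and 1951, 1779, 2486 and 2541 CPM in Smchd1 null lines. Here wild-type replicate 1 lay above Smchd1 null replicate 2, and the raised lines stood highest. The log2 fold change was 0.46 (SE 0.119, limma FDR 0.04403). Atp5a1 was not called without Smchd1 null replicates 3 and 4 (FDR 0.107), but stayed called with chromosome scaling (FDR 0.0433).

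In the trafficking list, Snx2, a sorting nexin of the retromer (53176292 to 53220866), was at 109, 126 and 121 CPM in wild-type lines and 196, 206, 348 and 130 CPM in Smchd1 null lines. It was highest in Smchd1 null replicate 3, and replicate 4 lay just above the wild-type range, with a log2 fold change of 0.84 (SE 0.188, limma FDR 0.03038). In the mRNA processing list, Ythdc2, an RNA helicase that reads methylated adenosine (44827730 to 44889720), was at 77.2, 62.0 and 56.9 CPM in wild-type lines and 86.6, 85.5, 102 and 61.2 CPM in Smchd1 null lines. Replicate 4 lay inside the wild-type range, and the log2 fold change was 0.53 (SE 0.122, limma FDR 0.03146). Ythdc2 was called neither with chromosome scaling (FDR 0.0967) nor without Smchd1 null replicates 3 and 4 (FDR 0.0507). No member of the translation or cell division lists was called, and no listed member was called lower.

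Outside the lists, B4galt6, a galactosyltransferase of glycosphingolipid synthesis (20684599 to 20746404), was at 0, 0.328 and 1.17 CPM in wild-type lines (0, 2 and 8 counts) and 5.63, 8.03, 12.5 and 79.1 CPM in Smchd1 null lines. The groups did not overlap, and Smchd1 null replicate 4 was far above the rest of its group. The log2 fold change of 3.86 (SE 0.864, limma FDR 0.03038) depends on the prior count added to such low wild-type counts. B4galt6 passed the CPM filter only through the Smchd1 null lines, where it is high, so these values are a description of a gene chosen partly for that level. Epb41l4aos, a long non-coding RNA antisense to Epb41l4a (33794892 to 33795989), was at 25.1, 15.8 and 21.1 CPM in wild-type lines and 25.2, 28.3, 40.0 and 34.3 CPM in Smchd1 null lines. Its log2 fold change was 0.71 (SE 0.191, limma FDR 0.04779). Epb41l4aos was called neither with chromosome scaling (FDR 0.0672) nor without Smchd1 null replicates 3 and 4 (FDR 0.133). The library kit does not mark strand, so that reads of the sense partner cannot be told apart. Epb41l4a itself was counted at no more than 0.827 CPM in any library.

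**Figure D5:**
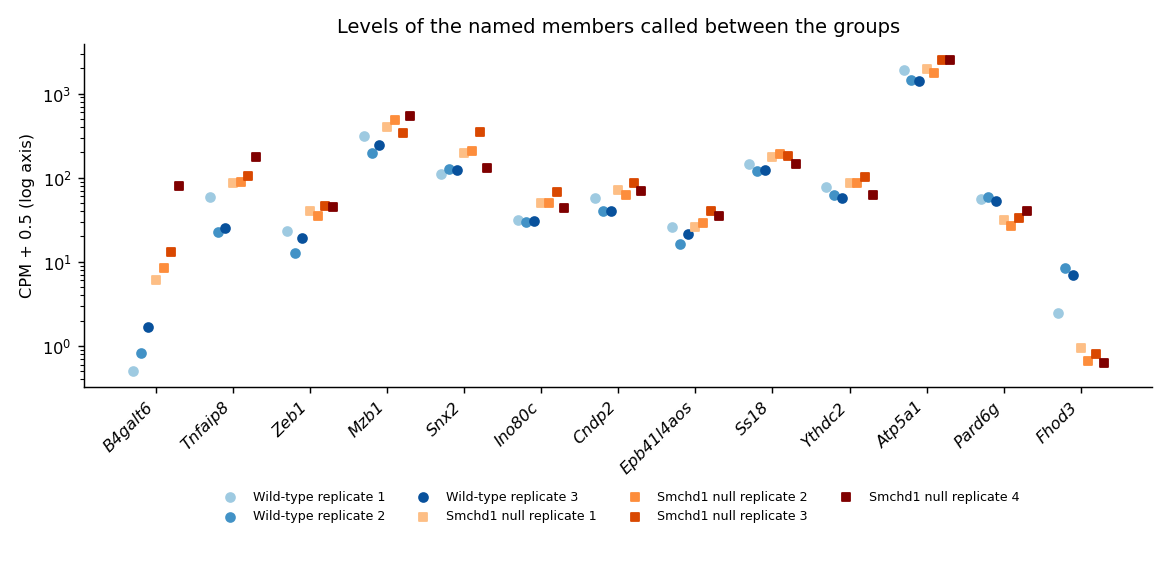
CPM + 0.5 (y axis, log scale) of the 13 named members called between the groups (x axis) in each library (circles, wild-type; squares, Smchd1 null). Pard6g and Fhod3 are lower in all 4 Smchd1 null lines, and the groups of Ythdc2 and Atp5a1 overlap.

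The members called lower were Pard6g, Fhod3 and Eno1b. Pard6g, a protein of the PAR polarity complex (80046830 to 80119640), was at 55.7, 59.0 and 52.5 CPM in wild-type lines and 31.0, 26.0, 32.3 and 39.6 CPM in Smchd1 null lines. The groups did not overlap, and the log2 fold change was -0.92 (SE 0.130, limma FDR 0.01068). Fhod3, a formin that organises actin (24708388 to 25133507), was at 1.93, 8.04 and 6.45 CPM in wild-type lines (7, 49 and 44 counts) and had 3, 1, 2 and 1 counts in Smchd1 null lines. The summed Smchd1 null level was 0.0429 of the wild-type level (95% exact interval of the counts 0.0168 to 0.0918, counting error only), and the limma FDR was 0.01087. Fhod3 passed the CPM filter only through the wild-type lines, where it is high, so these values are a description of a gene chosen partly for that level. Eno1b, a near copy of the glycolytic enolase gene Eno1, was at 1741, 3220 and 3052 CPM in wild-type lines and 2471, 1987, 1888 and 1979 CPM in Smchd1 null lines. Its groups overlapped through wild-type replicate 1 (log2 fold change -0.56, limma FDR 0.04003), and reads shared with Eno1 make its counts uncertain.

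The 10 called members not yet described were all higher, with log2 fold changes between 0.43 and 0.69. Wdr55, a nucleolar protein of ribosome biogenesis, had the largest of these, at 0.69 (limma FDR 0.02268), but wild-type replicate 1, at 91.5 CPM, lay above all 4 Smchd1 null lines. Sil1, a nucleotide exchange factor for the chaperone BiP, was at 16.5, 23.3 and 22.6 CPM in wild-type lines and 36.6, 31.8, 35.2 and 68.1 CPM in Smchd1 null lines (log2 fold change 0.65, limma FDR 0.03876). Hdhd2, with the sequence of a haloacid dehalogenase-like hydrolase, was at 45.2, 46.3 and 40.6 CPM in wild-type lines and 60.4, 60.4, 81.5 and 78.5 CPM in Smchd1 null lines (log2 fold change 0.59, limma FDR 0.0287). Both separated the groups, and in Hdhd2 the raised lines stood above replicates 1 and 2. The others were Sra1, BC031181, Slc35a4, 8030462N17Rik, Psmg2, a proteasome assembly chaperone, Pcyox1l and the pseudogene Nutf2-ps2, whose reads may come from its parent gene. These 10 and Eno1b were named after their values were seen, to account for each call. Without Smchd1 null replicates 3 and 4 none of the 10 passed the FDR, with log2 fold changes of 0.36 to 0.63 that included 0.62 for Sra1 and 0.50 for Pcyox1l, about the size in the full fit (0.59 and 0.50). With chromosome scaling Slc35a4, Hdhd2 and Psmg2 were called.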

How the data were processed

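RNA was measured in 3 wild-type and 4 Smchd1 null lymphoma lines, with 1 library per line. Per the study's methods and the labels, TruSeq RNA libraries were sequenced on an Illumina HiSeq, and reads were demultiplexed with CASAVA (version 1.8.2), aligned to mm10 with Subread and summarised per gene with featureCounts. The submitters' processing notes also name edgeR (version 3.8.2) and limma (version 3.22.0). The authors deposited raw counts per Entrez gene, neither normalised nor pooled. The treatment of multi-mapping reads was not stated, so counts of near-identical copies are uncertain, and wild-type replicate 1, with single-end reads, may differ in which reads could be placed.

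Symbols, gene types and coordinates came from RefSeq (GRCm38.p6), matched on Entrez identifiers for 25275 of 27179 genes, and 11943 of the 12303 genes tested. CPM was the count divided by the total of the library. A gene was kept when 3 or more libraries had 0.5 CPM of it, and TMM factors were computed. Groups were compared over all kept genes in R (version 4.3.3) with voomWithQualityWeights, lmFit and eBayes in limma (version 3.58.1) and edgeR (version 4.0.16), with Benjamini-Hochberg adjustment of the p-values to an FDR. An FDR under 0.05 was a call. The fitting code was tested on simulated data. Deviations used a pseudocount of 0.5 CPM. Intervals and floors cover counting error only.

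The members, the gene lists and the markers were chosen with earlier results of these data known, and the lists were written from general knowledge of the chromosome. Of the listed symbols, 10 were not members: Setbp1, Mcc, Tmem173, Map3k8, Cd226, Rab27b, Ppic, Atp5f1a, Grpel2 and Myo5b. Some of these are other names of a listed gene. Members were named as every called gene and the 3 of highest mean CPM in each list, the 8 largest increases and decreases among calls whose groups do not overlap, the 8 highest and 5 lowest deviations in Smchd1 null replicate 4 at a mean of at least 10 CPM, and the pairs beside the threshold. This gave 46 members, and 11 further calls were named after their values were seen. The values of 1 member and 1 marker are not reported here.

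Alternatives were relative log expression normalisation, no filter on low counts, at least 10 counts in every library, omission of each replicate, the replicate number as a block, batch as a covariate, voom alone, block weights, removal of wild-type replicate 1 with Smchd1 null replicate 4, edgeR's quasi-likelihood test, the Wald test of DESeq2 (version 1.42.0), scaling by chromosome and an FDR threshold of 0.1.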

Additional observations from a re-analysis of the deposited data

Results flagged for a closer look

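In the Smchd1 null group, 60 values (log2 of CPM + 0.5 for Smchd1 and for each of the 57 members named or called, the median deviation of members and their share of counts) were screened for a line far from the other 3, as the gap to the nearest line relative to the range of the group. Chance flags about 1 in 20, or 3 of 60, and 6 were flagged, 5 of them in Smchd1 null replicate 4. Members named for an extreme deviation in that line were chosen for it, so their flags are no support for a pattern. The wild-type group, with 3 lines, was not screened.

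Crem was at 6.68 in Smchd1 null replicate 4, against 2.61 to 3.07 in the other Smchd1 null lines, and Tcf4 was at 9.09 there, against 6.71 to 6.96. The same line was low for Kctd1, at 2.40 against 3.87 to 4.13, and for Reep2, at 1.16 against 3.57 to 3.66. Camk2a was at -1.0 in that line, which is the value of 0 counts, against 5.15 to 6.09. Colec12 was at 6.39 in Smchd1 null replicate 1, against -1.0 to -0.60 in the other 3 lines, which had 1 count or none. The summed B cell markers of 471 CPM in Smchd1 null replicate 4, against 1124 to 2090 CPM in the other 6 libraries, stand beside these values, and their part in them was not tested.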

How the results depend on the processing

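The median deviation of members stayed above 0 in Smchd1 null replicates 3 and 4 under each alternative run, at 0.29 to 0.39 in replicate 3 and 0.30 to 0.43 in replicate 4 when any other line was left out. The alternatives for replicate 3, and the omission of replicates 3 and 4 together, were chosen after seeing the data. The counts of calls moved far more. Members called higher, 21, became 0 with voom alone and with edgeR, 6 with block weights (1.27% of all genes), 3 after removal of wild-type replicate 1 and Smchd1 null replicate 4 (0.87%), 9 with DESeq2 (1.56%), 11 with chromosome scaling (4.97%), 9 without Smchd1 null replicates 3 and 4 (2.71%), 45 at an FDR of 0.1, and 0 to 20 when single lines were left out (0 without wild-type replicate 2 or 3, 10, 7 and 11 without Smchd1 null replicates 1, 2 and 3, against 1.66%, 1.37% and 2.89% of all genes). Over all genes, voom alone called 5 higher and 7 lower, edgeR 7 and 5, and the fits without wild-type replicate 2 or 3 called 0 and 1. Members called lower, 3, became 0 with voom alone and with edgeR. They became 6 with batch as a covariate (8.12% of all genes), 7 with chromosome scaling (4.71%) and 5 at an FDR of 0.1. When single lines were left out they numbered 0 to 6 (6 without wild-type replicate 1, against 8.14% of all genes, and 0 without wild-type replicate 2 or 3). At the FDR of 0.1 the share of all genes was not taken in either direction. The median log2 fold change of members, 0.18, ranged from 0.071 to 0.38 over the single omissions, with 0.36 and 0.38 without Smchd1 null replicates 1 and 2. The causes were not tested. Each of the 24 calls kept its direction under every alternative run, but 7 log2 fold changes moved by over 1.5 times without a wild-type line. Without wild-type replicates 2 and 3 in turn, Eno1b became -0.11 and -0.15, Wdr55 0.23 and 0.34, Nutf2-ps2 0.23 and 0.21, Sra1 0.31 and 0.36, and Psmg2 0.30 and 0.38. Epb41l4aos became 0.42 without replicate 2 and Atp5a1 0.30 without replicate 3. For lines with the same replicate number, the correlations of deviations ran from -0.21 to 0.22 over 3 pairs. Over the 9 other pairs they ran from -0.23 to 0.21. So few pairs cannot decide whether such lines share more than a number. With the replicate block, 3 members were called higher (against 0.707% of all genes) and 3 lower (against 1.1%), and the median log2 fold change was 0.14. The depth limits members near 3 counts, such as Fhod3 and B4galt6, and the 3 wild-type lines, of which replicates 2 and 3 carry most weight, limit every comparison of the groups.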
